A study of Mus musculus with 9 samples.

Results

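Stable distal GR loci are regions at which the glucocorticoid receptor (GR) gave a ChIP-seq peak at nearly the same strength 6 h after human chorionic gonadotropin (hCG) and before it, away from the annotated ends of genes. Overlapping peaks (1 bp or more) from the 4 GR lists were merged into 18570 loci on chromosomes 1 to 19 and X, of which 5012 held a peak of every library. At each of these, the highest fold enrichment in a library was divided by that library's median over the 5012 loci and put on the log2 scale, and M was the mean of the 6 h libraries minus the mean of the 0 h libraries. A locus was a member if M lay strictly between -0.5 and 0.5 and if it lay over 1 kb from both ends of every protein-coding gene of mm10. The rule gave 899 members. The limits on M kept 4459 of the 5012 shared loci (89%) and 899 of the 1172 shared loci that were distal (76.7%). The members were thus chosen by fold enrichment, through M, and by which lists held a peak, so these values are given below as descriptions, with no test.

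GR, the product of Nr3c1, is a steroid hormone receptor that enters the nucleus when it binds cortisol or corticosterone. On DNA it can bind a palindromic glucocorticoid response element directly, or it can be held at chromatin by other transcription factors, and in most cell types it binds chiefly where chromatin is already open. Granulosa cells surround the oocyte in the ovarian follicle, respond to follicle-stimulating hormone (FSH) while the follicle grows, and become luteal cells after the surge of luteinising hormone (LH).

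The cells were granulosa cells from punctured ovaries of wild-type CBA x C57BL/6 F1 mice aged 21 days. All mice were first given equine chorionic gonadotropin (eCG, also called PMSG) at 5 IU, which acts like FSH. For the 2 hCG libraries, the mice also received 5 IU of hCG, which acts like LH, 44 h after eCG and were killed 6 h after that, while for the 2 PMSG libraries (0 h) they were killed at 44 h without hCG. A single library of H3K27ac, the acetylation of histone H3 that marks active promoters and enhancers, came from 0 h. No GR library of the later time without hCG was analysed here, so the hormone and the later time cannot be told apart. The labels number the replicates but do not tell whether each is another set of mice, so the spread between them may be technical. The other 4 of the 9 samples were not analysed here.

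On chromosomes 1 to 19 and X the hCG lists held 14732 and 10587 peaks and the PMSG lists 10115 and 9724, and the H3K27ac list held 37453. The label of the cells was set against marker genes: 12 of 15 granulosa markers, among them Foxl2, Fshr, Amh and Inha, had an H3K27ac peak within 1 kb of a gene end, as did 2 of 11 theca markers, 2 of 14 oocyte markers, 2 of 14 leukocyte markers and 1 of 13 endothelial markers. The markers of other cells that carried the mark were Cyp17a1, Nr2f2, Dazl, Gdf9, Cd68, Fcer1g and Cdh5. The granulosa markers Cyp19a1, Nr5a2 and Runx1 had no such peak. The share over all protein-coding genes is not given here, so the lists are compared only with each other.

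Close to 50% of the stable distal loci lay at a transcript start that the distance to gene ends had not removed, because it belongs to an internal promoter or to a long non-coding RNA (lncRNA). RefSeq lists a start within 1 kb of 414 of the 881 members that could be placed (47.0%, 95% Wilson interval 43.7 to 50.3%), and the 18 members on the chromosome without listed starts were not placed. Of the 414 members, 330 were within 1 kb of the start of a protein-coding gene, and 84 were near a lncRNA start only. The 330 necessarily lay inside that gene, since the rule kept them over 1 kb from both its ends. The other 467 members had no listed start within 1 kb. At 344 members the start lay inside the locus itself. The list of starts is not complete, so these are counts of listed starts.

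The sequences before the starts are given for the 5 strongest members whose mean summit fell in the window from 250 bases before to 50 after a listed start, to show what such a site looks like. Each stretch is the 200 bases directly before a RefSeq start (build GRCm38.p6), written 5′ to 3′ on the strand of the gene, and the mean summit of the GR peaks lay within 153 bp of that start. They lie at chr12:86947143-86947342 (Cipc, plus strand), chr11:94211254-94211453 (Tob1, plus strand), chr1:133025417-133025616 (Mdm4, minus strand), chr11:116024505-116024704 (H3f3b, minus strand) and chr14:76504310-76504509 (Tsc22d1, plus strand). Capitals mark matches on either strand to the CCAAT box bound by NF-Y (CCAAT), the GC box bound by SP and KLF factors (GGGCGG), the AP-1 site (TGANTCA), the cAMP response element (TGACGTCA) and the E-box of clock and MYC factors (CACGTG).
Cipc: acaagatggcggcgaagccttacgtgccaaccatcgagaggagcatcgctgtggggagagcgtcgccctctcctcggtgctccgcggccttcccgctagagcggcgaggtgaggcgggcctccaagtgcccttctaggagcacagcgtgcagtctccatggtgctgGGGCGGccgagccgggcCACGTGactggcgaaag
Tob1: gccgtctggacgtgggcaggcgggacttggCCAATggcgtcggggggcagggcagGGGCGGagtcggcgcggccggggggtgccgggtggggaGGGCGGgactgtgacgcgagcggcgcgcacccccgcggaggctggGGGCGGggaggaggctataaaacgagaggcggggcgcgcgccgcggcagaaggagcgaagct
Mdm4: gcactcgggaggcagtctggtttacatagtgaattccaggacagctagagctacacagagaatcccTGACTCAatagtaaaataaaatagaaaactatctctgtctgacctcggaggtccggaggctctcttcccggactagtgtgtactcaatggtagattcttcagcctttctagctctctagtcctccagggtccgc
H3f3b: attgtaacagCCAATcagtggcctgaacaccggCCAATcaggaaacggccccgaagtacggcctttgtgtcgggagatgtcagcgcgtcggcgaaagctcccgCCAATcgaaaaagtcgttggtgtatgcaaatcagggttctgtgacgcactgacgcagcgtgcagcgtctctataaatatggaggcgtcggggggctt
Tsc22d1: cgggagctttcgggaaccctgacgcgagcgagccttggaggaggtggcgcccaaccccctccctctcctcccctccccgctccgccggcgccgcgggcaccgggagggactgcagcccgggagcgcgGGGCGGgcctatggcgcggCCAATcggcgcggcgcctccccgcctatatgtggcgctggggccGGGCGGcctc

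These stretches differ in composition and in what they match. Tob1 and Tsc22d1 are the richest in G and C (77.5% and 78.0%) and have 3 and 2 GC boxes, with 1 CCAAT box each. H3f3b has 3 CCAAT boxes and no GC box, Cipc has 1 GC box and 1 E-box, and Mdm4, at 48.5% G and C, has 1 AP-1 match. None of the stretches matches the core of the glucocorticoid response element, searched as G, any base, ACA, any 3 bases, TGT, any base, C. Each motif was searched on both strands and counted on its own, also where matches of different motifs overlap.

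At the strongest members, fold enrichment was about as high at 6 h as at 0 h. The first was a locus inside Zbtb16 at chr9:48723119-48724170, with fold enrichments of 52.4 and 38.5 in the hCG libraries, against 42.5 and 43.2 in the PMSG libraries. Zbtb16 encodes a zinc-finger transcription factor that many cell types induce in response to glucocorticoids. A second locus in the same gene, at chr9:48739993-48740597, had 37.3 and 34.7 in the hCG libraries, against 30.6 and 32.7 in the PMSG libraries. At the first Zbtb16 locus the hCG libraries were the highest and the lowest of the 4, and at the second both hCG libraries lay above both PMSG libraries. On the scaled values both hCG libraries lay above both PMSG libraries at each, with M of 0.17 and 0.28. Both loci touched 2 H3K27ac peaks, and the mean GR summit lay in the gap between them, which was 378 bp at the first and 179 bp at the second. Neither had a listed start within 1 kb.

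Cipc, which encodes an inhibitor of the clock factors CLOCK and BMAL1, came next with 31.2 and 22.5 in the hCG libraries, against 33.4 and 33.1 in the PMSG libraries. Tob1, which encodes an antiproliferative protein that promotes the shortening of poly(A) tails, had 31.4 and 18.5 in the hCG libraries, against 34.0 and 28.1 in the PMSG libraries. These raw values were lowest in the second hCG library, and so was that library's median over the shared loci, at 6.88 against 9.73 in the first hCG library and 8.69 and 8.81 in the PMSG libraries. After division by the medians M was -0.23 at Cipc and -0.26 at Tob1. Fshr, the gene of the FSH receptor and a marker of granulosa cells, held the fifth locus 10338 bp inside the gene, with 24.0 and 23.8 in the hCG libraries, against 27.3 and 27.8 in the PMSG libraries. Both hCG libraries lay below both PMSG libraries there before scaling, but on the scaled values they overlapped, with an M of -0.11.

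The other members among the 12 strongest were near or in Smarca1, Mdm4, Klf13, Taf12, H3f3b, Eif4e3 and Fyn. Smarca1 (an ISWI chromatin remodeller) had 27.02 and 26.95 in the hCG libraries, against 17.6 and 27.6 in the PMSG libraries, and its M of 0.39 was the highest of the 12. The first PMSG library alone was low at this locus on the raw values. On the scaled values, which M uses, the second hCG library was the highest and the first PMSG library the lowest. Mdm4 (an inhibitor of p53) had 26.0 and 17.0 in the hCG libraries, against 26.2 and 24.2 in the PMSG libraries, and Klf13 (a Krüppel-like factor) had 28.3 and 19.6 in the hCG libraries, against 21.0 and 22.4 in the PMSG libraries. For Taf12 (a subunit of the general factor TFIID), H3f3b (histone H3.3), Eif4e3 (of the cap-binding family) and Fyn (a Src-family kinase), the hCG values lay between 14.8 and 24.4 and the PMSG values between 18.4 and 26.4. Of the 12 loci, 5 had a listed start within 1 kb, namely those at Cipc, Tob1, Mdm4, H3f3b and, through the lncRNA Gm27252, Klf13.

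**Figure D1:**
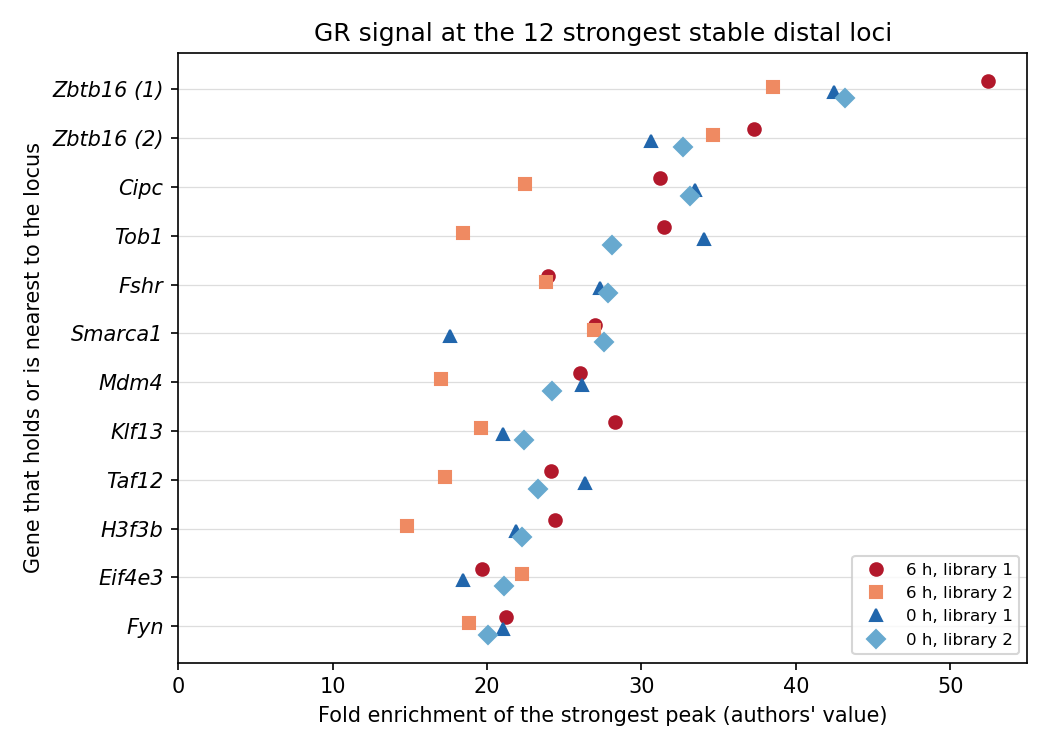
The fold enrichment of the strongest peak (horizontal axis, the authors' value, unscaled) is shown for the 12 strongest stable distal loci, named by gene and ordered from the strongest down; red and orange points are the 6 h libraries and blue points the 0 h libraries. The first Zbtb16 locus reached 52.4 in the first hCG library, and the second hCG library was the lowest of the 4 at most loci, as was its median over the shared loci.

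Over all 899 members the 4 libraries had much the same range. The lowest, the median and the highest fold enrichment were 2.02, 9.14 and 52.4 in the first hCG library and 1.55, 6.88 and 38.5 in the second, against 1.97, 8.37 and 42.5 in the first PMSG library and 1.98, 8.58 and 43.2 in the second. M had a median of -0.0019 and an SD of 0.241 over the members, and 577 members (64.2%) lay within 0.25 of 0. Differences between replicates were wider than M, which averages 2 libraries on each side. The rule also limited M and not these differences, so nothing is read from the comparison. Before that limit the SD of M was 0.501 over the distal shared loci and 0.355 over all shared loci. The SD of the replicate differences over the members was 0.367 between the hCG libraries and 0.353 between the PMSG libraries. These differences reached 0.5 in size at 169 members (18.8%) and at 136 (15.1%). On the scaled values both hCG libraries lay above both PMSG libraries at 158 members (17.6%) and below both at 154 (17.1%). The same counts over the distal shared loci were 29.9% above and 18.9% below, and over all shared loci 18.8% and 23%. The rule limited M, so nothing is read from this difference.

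**Figure D2:**
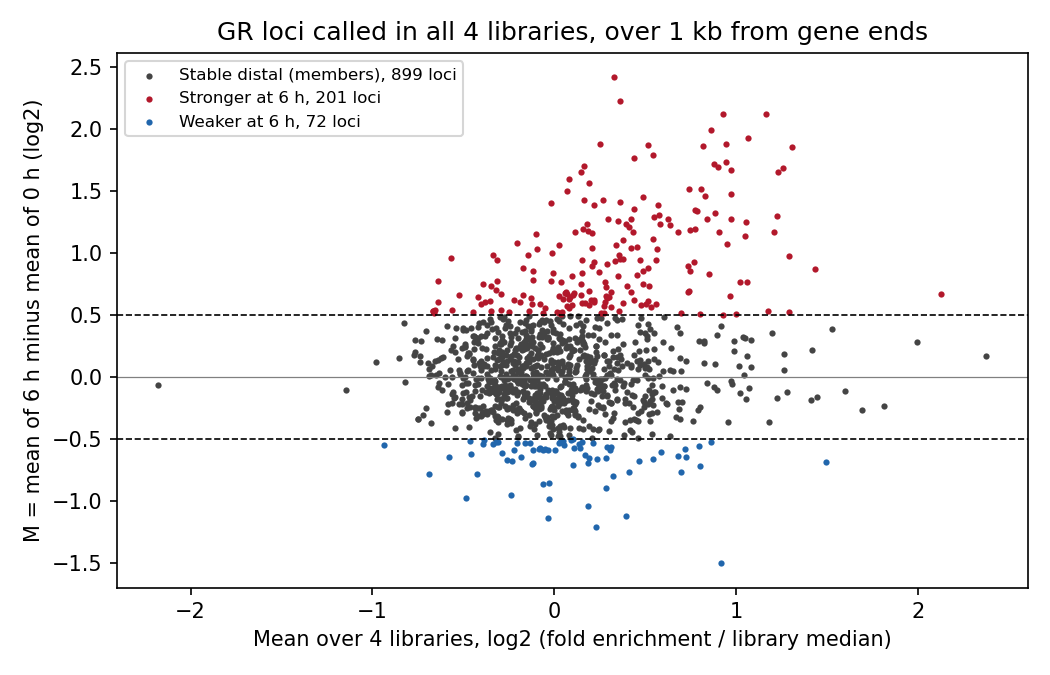
M (vertical axis, log2, 6 h minus 0 h) is plotted against the mean over the 4 libraries of the scaled log2 fold enrichment (horizontal axis) for the 1172 distal loci with a peak in all 4 libraries. The 899 members (grey) fill the band between the dashed limits of -0.5 and 0.5, with 201 loci above it and 72 below.

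The libraries were also set against each other in pairs over the members, although the rule limited only the difference between times. The correlation of scaled log2 fold enrichment over the 899 members was r = 0.70 between the hCG libraries and 0.72 between the PMSG libraries, and 0.70 to 0.75 for the 4 pairs of an hCG with a PMSG library. These are descriptions across loci that share libraries and whose M the rule limits, so nothing is read from their likeness. The SD over the 4 libraries had a median of 0.227 (log2). It was smallest at Il1r1, the gene of an interleukin-1 receptor, with 7.15 and 5.12 in the hCG libraries, against 6.46 and 6.60 in the PMSG libraries, which on the scaled log2 values is an SD of 0.0112. It was largest at Tmem248, with 12.3 and 7.06 in the hCG libraries, against 12.7 and 4.56 in the PMSG libraries. The pair of PMSG libraries alone differed by 1.495 (log2) at Tmem248, so its M of 0.39 lies well within the spread between replicates.

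At the limits of the rule, the members and the loci just left out had nearly the same values. The member with the highest M lay in Dcaf1, at 0.49, and the nearest non-member above lay near Anapc16, at 0.50. The member with the lowest M lay in Prkar1a, the gene of a regulatory subunit of protein kinase A, at -0.49, and the nearest non-member below lay near Garre1, at -0.50. Members with high M included Bcl2l10, Trim8, Babam2, Kif21b and a locus near Mon2, and those with low M included Dennd6b, Smn1, Btg2, Hpgd and Ets1. At the 1 kb limit, the members in Zfp451 and Skp1 lay 1005 bp from a gene end and the excluded locus in Trnau1ap 999 bp. The weakest member, 101727 bp from Esp38 on chromosome 17, stood apart from the rest with 2.02 and 1.55 in the hCG libraries, against 1.97 and 1.98 in the PMSG libraries, and with no H3K27ac. The next weakest, near Pdia5, had 3.52 and 3.61 in the hCG libraries, against 3.93 and 4.30 in the PMSG libraries.

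The peaks of the 4 libraries sat close together. A member had a median width of 654 bp after merging (264 to 3236 bp). The summits of the strongest peaks of all 4 libraries lay within 100 bp of each other at 428 members (47.6%) and within 200 bp at 675 (75.1%). The median distance between summits was 47 bp within the hCG pair and 43 bp within the PMSG pair, and 47 to 49 bp for pairs across times. Where a library had more than 1 peak at a member, their widths were summed. The median of this width was 558 and 385 bp in the hCG libraries, against 486 and 456 bp in the PMSG libraries. It was greatest in the first hCG library and smallest in the second, so the times overlapped.

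The rule did not use listed starts, but its 1 kb limit removed loci at the outer start of every protein-coding gene. The share of members at a start was therefore set against the same share in other distal classes of GR loci, which had that limit too. It was 47.0% in the members and 14.4% (28 of 195) in distal shared loci that were stronger at 6 h, with M of 0.5 or more. The difference was 32.6 percentage points (95% Newcombe interval 26.1 to 38.0). Among distal shared loci weaker at 6 h the share was 46.5% (33 of 71), and the difference of 0.513 points had an interval of -11.4 to 12.1. Distal loci called at 6 h only were near a start in 3.82% of cases and distal loci called at 0 h only in 7.54%. Stable loci near gene ends, which the 1 kb limit keeps out of the members, were near a start in 85.2% (2936 of 3446). These intervals, like all intervals of shares given here, cover counting error only, since loci of the same 4 libraries are not replicates. Protein-coding starts were near 37.5% of the members and 6.15% of the loci stronger at 6 h, a difference of 31.3 points (26.0 to 35.5). Starts of lncRNA genes alone were near 9.53% and 8.21%, and that difference was 1.33 points (-3.70 to 5.08).

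Along M, the value that chose the members, the share at a start is given as a description, and the division at 0.25 was made after the shares were seen. Among members with M above 0.25 a start lay within 1 kb of 28.6% (50 of 175), against 51.6% (364 of 706) of members with M of 0.25 or lower. Below 0.25 the share was nearly flat, at 52.1% for M of -0.5 to -0.25, 51.2% for -0.25 to 0 and 51.7% for 0 to 0.25, and above the upper limit of the rule it was 15.4% for M of 0.5 to 1 and 12.8% for M of 1 or higher. When any 1 library was left out, the share for M of 0.25 to 0.5 was higher than the 28.6% with all libraries, at 32.5 to 41.6%, while it was 47.7 to 53.1% for M of 0.25 or lower and 14.5 to 17.6% for M of 0.5 or higher. Without the first PMSG library the shares were 41.6% for M of 0.25 to 0.5 and 47.7% for M of 0.25 or lower, a much narrower gap than with all libraries. H3K27ac moved along M as well. It covered the mean summit at 94.6%, 93.8%, 92.2% and 81.1% of the members over these 3 ranges of M and that of 0.25 to 0.5, and its part in the result was not tested.

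**Figure D3:**
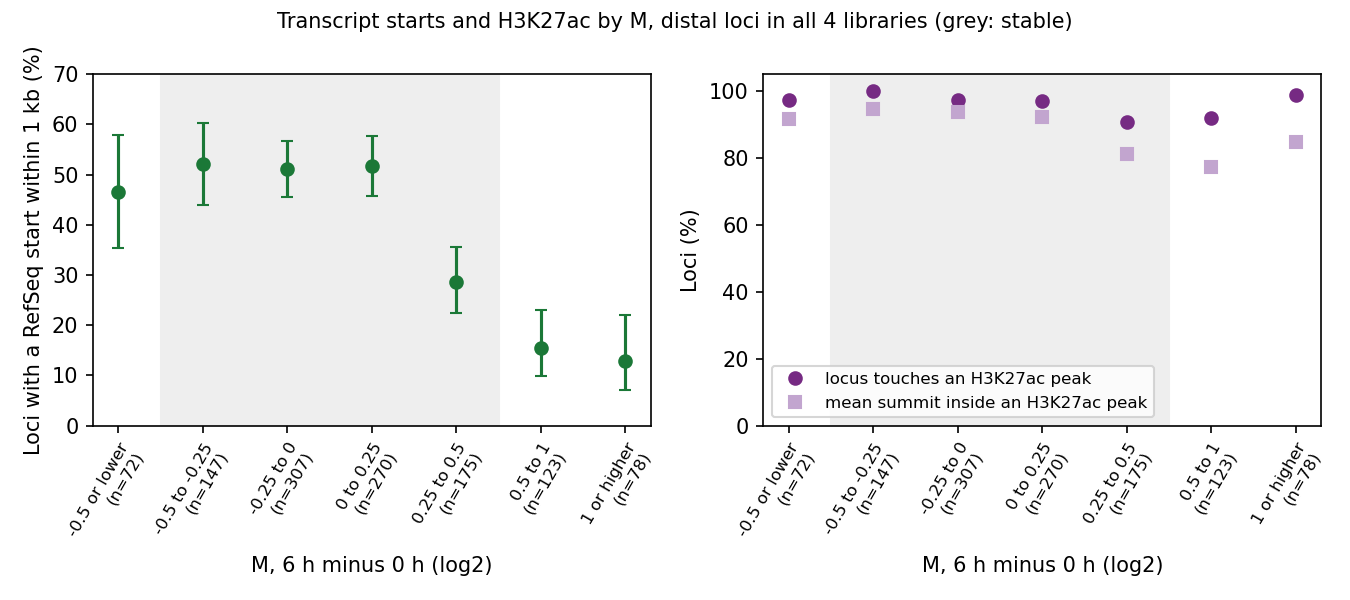
Left, the percentage of distal shared loci with a RefSeq start within 1 kb (points, with 95% Wilson intervals) in 7 ranges of M (log2, 6 h minus 0 h); right, the percentage that touch an H3K27ac peak of 0 h (circles) and whose mean summit lies inside one (squares). The grey band holds the 899 members, and the share at a start is 52.1% at its left side and 28.6% at its right side.

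The members at a start and those without one had similar GR signal. Over the 330 members at a protein-coding start the median fold enrichment was 9.65 and 6.72 in the hCG libraries, against 8.92 and 8.77 in the PMSG libraries. Over the 467 members with no start it was 8.99 and 6.98 in the hCG libraries, against 8.08 and 8.37 in the PMSG libraries. These medians differ by less than those of the 2 hCG libraries. The median of M was -0.05 at protein-coding starts, 0.01 at lncRNA starts and 0.04 away from starts. Among the lncRNA genes with a member at the start were Malat1, an abundant nuclear RNA, and the snoRNA host genes Snhg17, Snhg3 and Snhg12. The member at Malat1 had 17.2 and 12.4 in the hCG libraries, against 16.3 and 16.8 in the PMSG libraries, and the one at Snhg17 had 17.9 and 13.6 in the hCG libraries, against 15.3 and 15.8 in the PMSG libraries.

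The sequence of the starts that members occupy was compared with that of starts without GR, which were not matched for gene type or base composition. The mean summit of 184 members lay inside a RefSeq window of 300 bases, which runs from 250 before to 50 after a start, at a median of 28.5 bp before the start, and before it in 116 cases (63.0%). The comparison set was 817 windows that also lie over 1 kb from gene ends and in H3K27ac but touch no GR locus. G and C made up a median of 64.3% of the bases in members' windows and 53.0% in the comparison windows, and the ratio of observed to expected CpG was 0.845 against 0.380. These values were close to those of 1501 windows at stable loci near gene ends, at 64.7% and 0.884, while all 32583 windows had 53.0% and 0.386.

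The motifs differed in part along with this. A GC box lay in 64.7% of the members' windows, against 32.9% of windows without GR and 35.9% of all windows. The difference from windows without GR was 31.7 points (23.9 to 39.0). The E-box was in 11.4%, against 5.14% of windows without GR and 7.20% of all windows. The CCAAT box was in 39.1%, against 31.0% of windows without GR and 37.6% of all windows, and the AP-1 site in 5.43%, against 8.81% and 7.85%. The AP-1 difference from windows without GR was -3.38 points, with an interval that holds 0 (-6.64 to 1.25). Sites rich in A and T were less common in the members' windows. GATA sites (AGATAA) were in 1.63%, against 12.5% of windows without GR and 11.2% of all windows, and forkhead sites (TGTTTNC) in 10.9%, against 24.4% and 20.6%. The difference from windows without GR was -10.9 points for GATA (-13.5 to -7.15) and -13.5 points for forkhead sites (-18.3 to -7.46). Windows of stable loci near gene ends had a GC box in 74.8%, a CCAAT box in 40.7% and a GATA site in 3.33%. The GC box was less common in the members' windows than in these, with a difference of -10.1 points (-17.5 to -3.16). Base composition differed between the sets as given above, and its part in these shares was not tested.

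The glucocorticoid response element itself was rare in all sets of windows. The single hexamer of that element, AGAACA, was in 9.78% of the members' windows, against 17.9% of windows without GR and 18.99% of all windows. The difference from windows without GR was -8.09 points (-12.6 to -2.37). The core element matched 1 of the 184 windows, at the lncRNA A230028O05Rik, or 0.543%, against 0.245% of windows without GR and 0.479% of all windows. The difference from windows without GR was 0.299 points (-0.485 to 2.78). The full palindrome (AGAACA, any 3 bases, TGTTCT) matched none, which allows a share of up to 2.05% (Wilson). The member at A230028O05Rik had 15.3 and 10.4 in the hCG libraries, against 11.8 and 13.1 in the PMSG libraries. These counts concern only the letters in the windows read. Sequences of members away from starts were not read, since no genome was at hand.

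H3K27ac of 0 h covered nearly all members. Of the 899, 867 touched an H3K27ac peak (96.4%, Wilson interval 95.02 to 97.47), as did 94.5% of the distal loci stronger at 6 h and 97.2% of those weaker at 6 h. The share was 36.3% for distal loci called only at 6 h, 60.2 points lower than in the members (interval of the difference 57.8 to 62.3). It was 90.5% for distal loci called only at 0 h, 5.95 points lower (3.31 to 8.94), and 99.1% for stable loci near gene ends. The mean GR summit lay inside the mark at 91.0% of the members, against 80.1% of loci stronger at 6 h, a difference of 10.9 points (5.55 to 17.2). The mark came from 1 library at 0 h, so it has no spread between samples and says nothing of acetylation at 6 h.

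**Figure D4:**
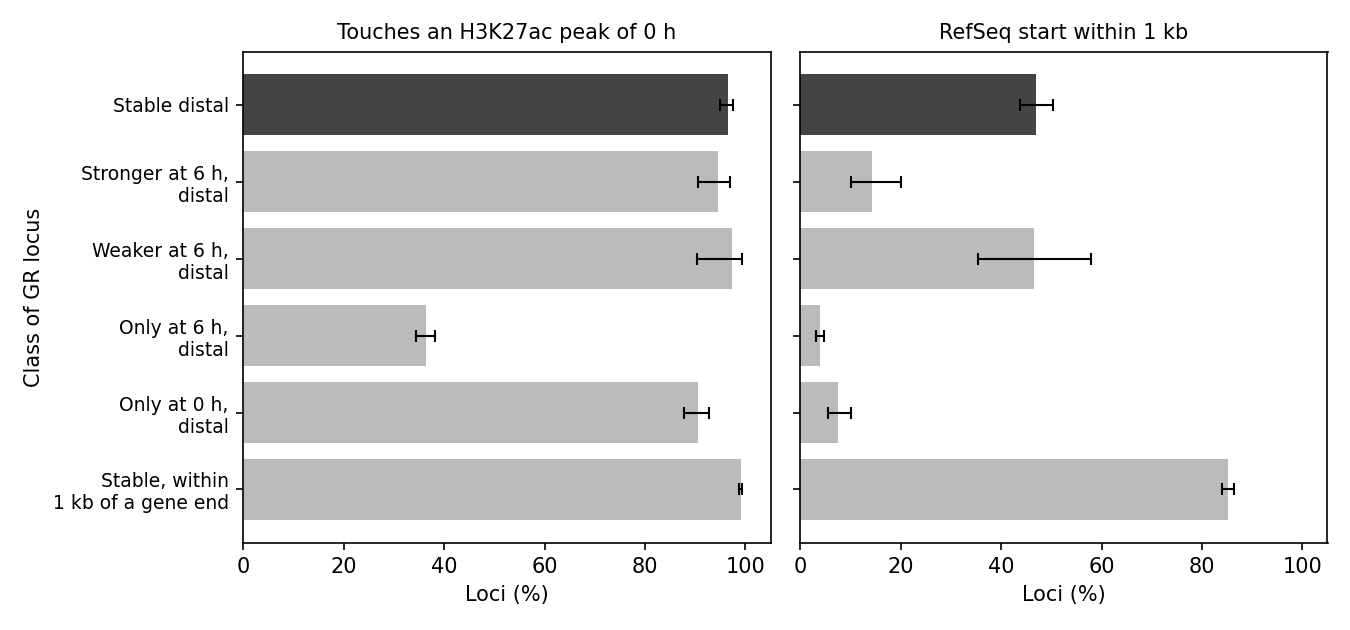
Bars give the percentage of loci in each class that touch an H3K27ac peak of 0 h (left) and that have a RefSeq start within 1 kb (right), with 95% Wilson intervals for counting error. The members (dark, top) reach 96.4% and 47.0%, and the distal loci called only at 6 h 36.3% and 3.82%.

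The mark at the members was wider than most H3K27ac peaks, as it was in other distal classes. The widest H3K27ac peak at a member had a median width of 1765 bp, against 637 bp for all H3K27ac peaks. It was 2196.5 bp in distal shared loci stronger at 6 h and 1882.5 bp in those weaker at 6 h. In distal loci called only at 0 h it was 2547.5 bp, and in those called only at 6 h 1024 bp. The classes take the widest peak that a locus touches, which is not the same measure as the median over all H3K27ac peaks. With each mark cut into 3 equal parts the mean GR summit fell in the central one at 491 of the 818 members whose summit was inside a mark. The widest marks were at Greb1 (32326 bp, with 2 members), Msi2, Sulf2 and Tox2. At 62 members the locus touched more than 1 H3K27ac peak, and at 25 of these the mean summit fell in the gap between neighbouring peaks, which had a median length of 168 bp (79 to 414 bp). The strongest of these 25 were the pair in Zbtb16, the one near Smarca1 and one in Klf15, a Krüppel-like factor that glucocorticoids induce in several tissues. Klf15 had 25.1 and 14.1 in the hCG libraries, against 16.6 and 15.5 in the PMSG libraries. The hCG libraries were again the highest and the lowest of these raw values. On the scaled values both hCG libraries lay above both PMSG libraries, with an M of 0.33. Among the 12 strongest members the share with the summit in a gap was 3 of 12, and over the members in 4 bands of strength it was between 2.22% and 3.11%.

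**Figure D5:**
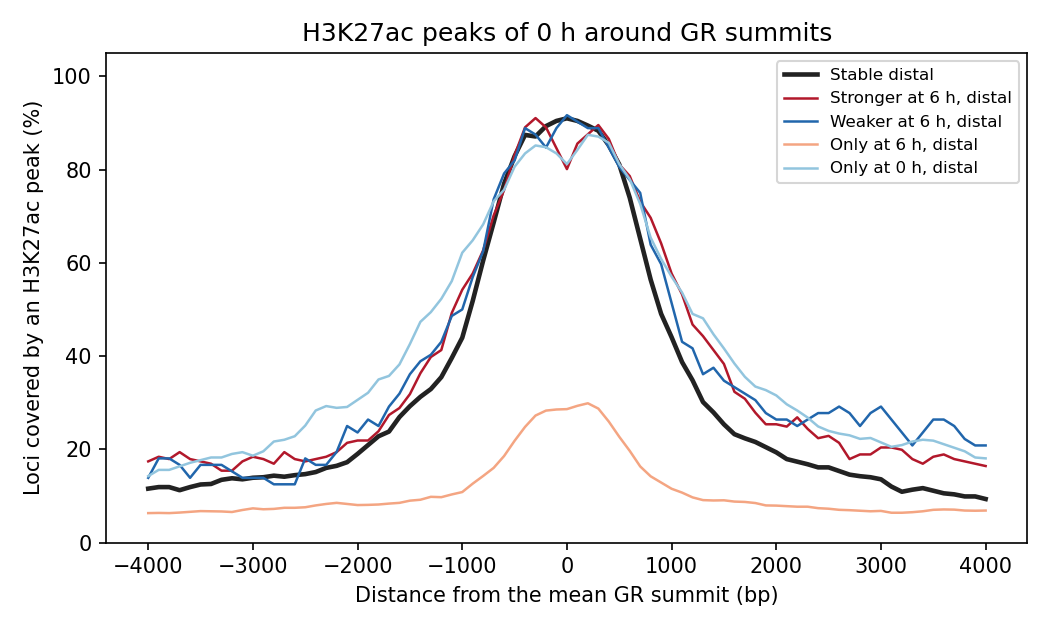
The percentage of loci covered by an H3K27ac peak of 0 h (vertical axis) is shown at each distance from the mean GR summit (horizontal axis, bp) for the distal classes of loci. The line of the members peaks at 91.0% at the summit, while the line of distal loci stronger at 6 h dips to 80.1% there.

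The 32 members outside H3K27ac were not only weak ones. The strongest lay in Slc12a8, with 17.8 and 12.7 in the hCG libraries, against 11.5 and 12.8 in the PMSG libraries, followed by loci near Axin2, Zfp648, Ehf and Itprid2 and in Sytl3, Lrp11 and Nlgn1. A member at a start of Cdkn1a, which encodes the cell cycle inhibitor p21, was also outside the mark, with 13.0 and 6.88 in the hCG libraries, against 9.76 and 7.43 in the PMSG libraries. It was the single member at a protein-coding start that touched no H3K27ac peak, of 330. Of the members away from starts, 93.6% touched the mark (91.0 to 95.5).

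By position, 608 members (67.6%) lay inside a protein-coding gene, against 56.7% of the distal loci stronger at 6 h, a difference of 10.9 points (3.56 to 18.4). The 330 members at a protein-coding start were all inside a gene, as the rule requires. Among members with no start within 1 kb the share was 52.2% (244 of 467). The loci stronger at 6 h were not split by starts for this share. The median distance to the nearest gene end was 7195 bp, against 19005 bp in the loci stronger at 6 h. It exceeded 10 kb at 389 members and 50 kb at 106, and it was longest for a member 1147039 bp from Pcdh9, which had 8.94 and 5.84 in the hCG libraries, against 8.63 and 7.12 in the PMSG libraries. Another GR locus lay within 10 kb of 57.7% of the members, against 58.7% of the loci stronger at 6 h and 38.7% of stable loci near gene ends. A locus called only at 6 h lay within 50 kb of 34.8% of the members and of 52.2% of the loci stronger at 6 h.

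Most genes that held a member held 1, and a few held many. The 608 members lay in 547 genes, 2.53% of all protein-coding genes, and 507 of these genes had 1 member. Greb1, an estrogen receptor target and cofactor, held 14 members among 69 GR loci in 131 kb, and 50.5% of the gene was covered by H3K27ac. Over these 14 members the median fold enrichment was 7.03 and 6.76 in the hCG libraries, against 7.37 and 7.31 in the PMSG libraries, and M ran from -0.34 to 0.38. Of the 14 members 5 touched no H3K27ac peak, and the strongest, at chr12:16764456-16765247, had 14.7 and 13.5 in the hCG libraries, against 12.7 and 15.0 in the PMSG libraries. Rbm39, which encodes a splicing factor, held 6 members among 28 GR loci in 33.0 kb with 3.69% of the gene in H3K27ac, and none of its 6 members touched the mark. There the median was 7.04 and 7.20 in the hCG libraries, against 6.28 and 7.72 in the PMSG libraries. Tex14, a gene known for its role in germ cell bridges, held 5 members with medians of 15.9 and 10.6 in the hCG libraries, against 14.9 and 11.96 in the PMSG libraries. Mllt10, N4bp2, Pfkfb3, Tnrc18 and Ubtf held 3 each.

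Several known glucocorticoid targets had a stable distal locus nearby. Of 24 genes of the glucocorticoid response, 10 had a member within 50 kb, and 7 inside the gene. Over all protein-coding genes the share within 50 kb was 8.95%, and over the 15 lists together it was 20.1% (48 of 239 genes). The counts of the lists below stand beside these same shares. Besides Zbtb16, Klf15 and Cdkn1a, members lay in Fkbp5, Angptl4, Sgk1 and Tsc22d3. Fkbp5, a co-chaperone that lowers the hormone binding of GR, had 14.4 and 17.0 in the hCG libraries, against 14.8 and 12.7 in the PMSG libraries. Tsc22d3, which encodes the anti-inflammatory protein GILZ, had 10.8 and 12.6 in the hCG libraries, against 10.02 and 15.1 in the PMSG libraries, at a start. Sgk1, a kinase that glucocorticoids induce, had 11.2 and 5.36 in the hCG libraries, against 8.19 and 12.6 in the PMSG libraries, also at a start. In each of these 3 genes the hCG and PMSG values overlapped. The member 17864 bp from Ddit4, an inhibitor of mTORC1 signalling, had 19.3 and 18.4 in the hCG libraries, against 16.3 and 16.0 in the PMSG libraries, and there the libraries of the 2 times did not overlap. That locus lay nearer to an end of Anapc16 (16880 bp). The others were counted for Nfkbia and Errfi1, at 42283 and 45312 bp. They lay nearer to ends of Psma6 (28322 bp) and Park7 (4280 bp).

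Members also lay at genes of the growing follicle. Of 24 genes of the FSH response, 6 (25%) had a member within 50 kb, namely Fshr, Esr2, Gata4, Ccnd2 and Fst, in the gene, and Nppc. The share was 8.95% over all protein-coding genes, 20.1% over the 15 lists together and 20% over housekeeping genes (3 of 15). Gata4, a transcription factor of granulosa cells, had 15.9 and 14.3 in the hCG libraries, against 14.7 and 15.1 in the PMSG libraries. Ccnd2, the cyclin of granulosa cell proliferation, had 17.6 and 8.77 in the hCG libraries, against 13.2 and 17.6 in the PMSG libraries, 742 bp from a lncRNA start. At both genes the libraries of the 2 times overlapped. The list of granulosa markers, which shares Fshr, Esr2, Gata4 and Fst with this one, had 5 of 15.

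Members at genes of ovulation and early transcription ran from strong to weak. Of 25 genes of the ovulatory response, 5 had a member within 50 kb (Adamts1, Hif1a, Runx1, Star and Snap25). Hif1a, the hypoxia-induced factor, had 16.4 and 8.64 in the hCG libraries, against 10.8 and 12.5 in the PMSG libraries, at a start. Of 20 AP-1 and early genes, 6 had one (Nr4a1, Srf, Fosb, Egr3, Nr4a3 and Fos). Nr4a1, an orphan nuclear receptor gene that LH induces, had 9.69 and 7.16 in the hCG libraries, against 12.6 and 11.3 in the PMSG libraries, and the hCG libraries were the lower pair, also after scaling. Egr3 lay the other way, with 11.5 and 7.50 in the hCG libraries, against 7.38 and 7.05 in the PMSG libraries, and there both hCG libraries lay above both PMSG libraries, with an M of 0.46.

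Of the remaining lists, inflammation and prostaglandins had 5 of 20 genes with a member within 50 kb, among them Hpgd, which encodes the enzyme that breaks down prostaglandins, and Il1r1. Luteinisation and steroid synthesis had 3 of 20 (Cyp11a1, Hsd3b1 and Star), the circadian clock 3 of 17 (Per2, Rora and Tef), glucocorticoid handling 1 of 10 (Ncoa2, a coactivator of GR) and matrix and vessels 1 of 20 (Itga5). Cyp11a1, the first enzyme of steroid synthesis, had 6.95 and 5.51 in the hCG libraries, against 7.53 and 6.54 in the PMSG libraries. Per2, a core clock gene, had 12.3 and 8.95 in the hCG libraries, against 13.6 and 11.5 in the PMSG libraries. Among markers of other cells, theca had 3 of 11 (Ptch1, Nr2f2 and Tagln), oocyte 1 of 14 (Zp3), endothelium 2 of 13 (Esam and Egfl7) and leukocytes 0 of 14. Housekeeping genes had 3 of 15, the same share as the ovulatory list. The members counted for Nppc, Esam, Il6ra, Tagln and the housekeeping gene Actb each lay at a start of another protein-coding gene (Dis3l2, Msantd2, Atp8b2, Pafah1b2 and Fbxl18). The one counted for Egfl7 lay at the start of the lncRNA Snhg7. Those counted for Star and Zp3 lay inside other genes (Ash2l and Ssc4d). Those counted for Tef and Itga5 lay nearer to ends of other genes (Tob2 and Gpr84).

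Some members lay at microRNA genes, which is given only as a description, since the share over all GR loci was not counted. The hairpin of a RefSeq microRNA was within 1 kb of 11 members, and 5 hairpins overlapped a member. Of these hairpins, mature sequences are given for let-7i (chr10:122985698-122985719, minus strand), miR-760 (chr3:122293615-122293634, minus strand), miR-3064 (chr11:106782736-106782757, minus strand) and miR-22 (chr11:75463772-75463793, plus strand), from RefSeq GRCm38.p6, with the seed (bases 2 to 8) in capitals. All 4 seeds differ.
let-7i-5p: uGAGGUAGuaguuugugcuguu
miR-760-3p: cGGCUCUGggucugugggga
miR-3064-5p: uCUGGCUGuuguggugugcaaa
miR-22-3p: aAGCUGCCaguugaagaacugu

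Mirlet7i, of the let-7 family that represses growth and developmental genes, had a pair of members beside it. The one that overlaps the hairpin had 12.1 and 4.43 in the hCG libraries, against 6.95 and 8.34 in the PMSG libraries. The other, 265 bp away, had 11.9 and 6.54 in the hCG libraries, against 5.64 and 7.99 in the PMSG libraries, and its M of 0.49 was close to the upper limit. On the raw values the first hCG library was the highest at both. The second was the lowest at the hairpin and lay between the PMSG libraries at the other locus. After scaling, both hCG libraries lay above both PMSG libraries at that other locus, at 0.29 and -0.07 against -0.62 and -0.14 (log2). The member 374 bp from Mir22, at the start of its host RNA Mir22hg, had 9.93 and 6.74 in the hCG libraries, against 8.39 and 7.21 in the PMSG libraries. Mir760 had 7.28 and 5.77 in the hCG libraries, against 8.25 and 7.92 in the PMSG libraries. Mir3064, in Ddx5, had 6.43 and 6.80 in the hCG libraries, against 3.97 and 7.29 in the PMSG libraries, and its member lay outside H3K27ac. Mir5620 in Clcn4 and Mir7671 near Irf1 also overlapped a member.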

How the data were processed

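GR and H3K27ac were measured by ChIP-seq in mouse granulosa cells. Per the submitters' processing notes, the tools were Bowtie2 2.4.5 and MACS2 (version not given in the sources used here) and the build was mm10. The authors deposited 1 list per library. A deposited GR peak carries a fold enrichment (a ratio), −log10 p and q values, a summit and a score. The authors' score column is the −log10 p times 10 without its decimals. The weakest peaks have a −log10 p-value of 9.00 to 9.10 in the authors' lists, so weaker peaks are not seen. The H3K27ac list gives positions only. The sources used here give neither read depth nor controls, so M does not separate depth from binding.

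Loci, M and classes were computed with Python 3.11.15 and numpy 2.4.6, and the rule was tested on simulated data. Distances used 21631 protein-coding genes of RefSeq GRCm38.p6, and starts used 32619 RefSeq windows. A planned motif search around all summits could not run without a genome and was replaced by those start windows. Shares carry 95% Wilson and Newcombe intervals. The members, the 15 gene lists, the motifs and the tests were chosen with earlier results of these data known. Named loci were, by rule, the 12 strongest, the 4 weakest, those at the limits of M and distance, the strongest outside H3K27ac, the extremes of spread, distance and H3K27ac width, the genes with most members and up to 4 genes per list. The further list genes, the loci in gaps, the lncRNA starts, the Mir genes and the start windows printed were chosen after their values were seen. Alternatives changed the limits, the scaling, the merging, the peaks kept and the libraries.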

Additional observations from a re-analysis of the deposited data

How the results depend on the processing

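The count of 899 members depends on the limits of its rule. It was 577 with M within 0.25, 358 with the stronger 50% of each list and 525 beyond 5 kb from gene ends, and 870 to 1248 with 1 library left out. With same-numbered libraries paired in a replicate block, 641 loci stayed within the limits in both pairs, but the labels do not pair them and the deviations of same-numbered libraries correlated at r = 0.028 over the 5012 shared loci. The share in H3K27ac was 99.2% with the stronger 50% of each list, 92.5% if the mark had to cover 50% or more of the locus and 91.0% if it had to hold the mean summit, and 94.3 to 96.8% with 1 library left out. The share inside genes was 59.0% and the median distance 18828 bp beyond 5 kb, and with 1 library left out they were 66.9 to 68.8% and 7037 to 7956 bp. The share at a start, an analysis added after seeing the data, was 51.4% with M within 0.25, 43.7% with M within 1, 36.8% beyond 5 kb, 42.2% for starts within 250 bp, 51.5% for starts within 2 kb and 41.8 to 48.6% with 1 library left out. Its difference from loci stronger at 6 h was 40.4 points with the stronger 50% of each list, 24.3 points beyond 5 kb and 24.96 to 34.9 points with 1 library left out. Listed genes with a member numbered 27 by gene span alone, against 48 within 50 kb. The median of M, at -0.0019, turned sign when 1 library was left out, with a range of -0.0280 to 0.0388. The count of members was 1089 with M within 1 and 734 with −log10 p in place of fold enrichment. Motif windows of 100 and 400 bp were not run without a genome. With 2 libraries a group and no read depth, neither small differences in binding nor peaks under the authors' limit can be seen.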
